A study of Mus musculus with 15 samples.

Results

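The genes described here belong to the unfolded protein and amino acid stress response, and they were the rows of the deposited count table with the symbols Atf4, Ddit3, Trib3, Asns, Psat1, Phgdh, Hspa5, Herpud1, Xbp1 and Dnajb9. All 10 were found among the 24421 symbols of the table, and all 10 passed the filter on low counts that left 16752 genes for testing. The genes form an ATF4 arm of 6 (Atf4, Ddit3, Trib3, Asns, Psat1 and Phgdh) and a chaperone arm of 4 (Hspa5, Herpud1, Xbp1 and Dnajb9). Whole kidney of wild-type mice was sequenced as 15 libraries of total RNA, all at day 14. The UUO_Si group (6 libraries) had an obstructed ureter, the unilateral ureteral obstruction model of kidney fibrosis, and ate a diet holding a silicon-based agent. The UUO group (6 libraries) had the same obstruction on a normal diet, and the sham group (3 libraries) had sham surgery on a normal diet; no sham group on the silicon-based diet was analysed here. The strain, sex and age of the mice, and whether each library is a separate animal, are not given in the sources used here, so p-values measure only the spread between these libraries.

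Proteins of the secretory pathway fold in the endoplasmic reticulum (ER), and unfolded protein there activates the sensors PERK, IRE1 and ATF6. PERK and the amino acid sensor GCN2 both phosphorylate the initiation factor eIF2, which lowers translation in general while favouring translation of the Atf4 mRNA. ATF4 protein then drives genes of amino acid synthesis, transport and stress, whereas ATF6 and spliced XBP1 drive ER chaperones and the machinery that removes misfolded protein. In the kidney these pathways have been studied in injured tubule cells and podocytes. Gene counts measure the amount of mRNA only: they show neither the translation of Atf4 nor the splicing of Xbp1.

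The deposited values summed to 7754724 to 11465936 counts in UUO_Si libraries, 11151023 to 15422613 in UUO libraries and 5526642 to 8308121 in sham libraries. In 4 libraries (UUO_Si replicate 6, UUO replicates 5 and 6, and sham replicate 3) 828 to 1281 of 1456 olfactory and vomeronasal receptor genes had counts, against 101 to 166 in the other 11. These 4 receptor-gene libraries were kept, and each call among the 10 genes that changed without them is given both ways. Marker sums in counts per 1000000 counts of a library (CPM) also separated the groups: 10 proximal tubule markers summed to 788 to 2197 CPM in UUO_Si libraries and 1005 to 1862 CPM in UUO libraries, against 15488 to 18794 CPM in sham libraries. The 7 fibroblast markers summed to 4726 to 6689 CPM in UUO_Si libraries and 5532 to 10338 CPM in UUO libraries, against 349.8 to 517 CPM in sham libraries. The tubule, collecting duct and podocyte markers that define kidney had counts in every library.

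The promoters of the 4 genes that passed the test between UUO and sham libraries are printed because ATF4 and the ER stress factors are known for particular recognition letters. Each runs 5′ to 3′ on the gene's own strand from 250 bases before to 50 bases after the RefSeq start site (GRCm38.p6), and capitals mark the motifs searched. Asns lies at chr6:7693160-7693459 on the minus strand, Phgdh at chr3:98339920-98340219 on the minus strand, Hspa5 at chr2:34771840-34772139 on the plus strand and Herpud1 at chr8:94386179-94386478 on the plus strand.
Asns: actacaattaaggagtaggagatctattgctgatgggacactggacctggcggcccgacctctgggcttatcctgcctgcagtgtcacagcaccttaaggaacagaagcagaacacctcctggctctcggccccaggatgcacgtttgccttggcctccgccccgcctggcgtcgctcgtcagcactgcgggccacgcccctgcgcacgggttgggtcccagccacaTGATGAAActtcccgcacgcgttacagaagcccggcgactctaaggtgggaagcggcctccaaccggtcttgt
Phgdh: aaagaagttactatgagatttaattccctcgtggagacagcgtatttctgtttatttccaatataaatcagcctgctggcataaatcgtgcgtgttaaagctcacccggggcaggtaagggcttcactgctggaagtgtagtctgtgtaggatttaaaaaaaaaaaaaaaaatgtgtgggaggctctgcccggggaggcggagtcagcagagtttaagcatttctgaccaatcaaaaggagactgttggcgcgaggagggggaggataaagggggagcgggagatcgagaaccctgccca
Hspa5: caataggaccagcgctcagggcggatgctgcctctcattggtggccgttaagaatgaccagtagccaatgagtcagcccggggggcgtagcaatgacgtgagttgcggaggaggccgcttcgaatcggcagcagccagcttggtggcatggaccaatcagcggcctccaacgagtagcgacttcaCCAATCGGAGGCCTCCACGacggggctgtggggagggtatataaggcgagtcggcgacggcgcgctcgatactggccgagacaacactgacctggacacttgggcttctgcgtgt
Herpud1: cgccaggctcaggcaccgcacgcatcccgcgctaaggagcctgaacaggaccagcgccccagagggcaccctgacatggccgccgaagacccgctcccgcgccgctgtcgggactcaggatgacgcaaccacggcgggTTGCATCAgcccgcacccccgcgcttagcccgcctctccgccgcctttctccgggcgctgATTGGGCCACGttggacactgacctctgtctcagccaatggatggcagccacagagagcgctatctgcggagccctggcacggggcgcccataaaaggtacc

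In the Asns promoter the capitals mark the CEBP-ATF core TGATGNAA (N being any base), from 23 to 16 bases before the start. This core, searched on both strands, was in the promoters of 3 of the 10 genes (Asns, Trib3 and Herpud1) and in 3.97% of all 32851 RefSeq promoters. In Trib3 it lay from 14 to 21 bases after the start on the reverse strand. The Hspa5 capitals are the ER stress response element, CCAAT and CCACG with 9 bases of any kind between them, from 65 to 47 bases before the start. That element was in 0.119% of all promoters and in no other promoter of the 10 genes. Herpud1 held the CEBP-ATF core on the reverse strand, from 112 to 105 bases before the start, and the second ER stress element ATTGGNCCACG from 52 to 42 bases before it. The second element was in 0.0365% of all promoters, and it was added to the search after the sequences had been read. The Phgdh promoter held none of the 3 long motifs. The short CCACG sequence, which is part of both ER stress elements, was in 7 of the 10 genes and in 32.8% of all promoters. Of the 10 genes, all of which had a promoter in the RefSeq table, Herpud1 alone held both the CEBP-ATF core and a full ER stress element; a match is a string of letters, and no binding was measured.

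Levels were compared between genes per kilobase of exon, since a longer gene collects more counts at the same amount of RNA. In UUO_Si libraries the order of mean levels was Hspa5 at 85.2 ± 23.1 CPM per kilobase, Herpud1 at 41.7 ± 12.4, Atf4 at 37.6 ± 3.66, Xbp1 at 33.5 ± 5.53 and Dnajb9 at 16.9 ± 3.80 (SD, n = 6). The order in UUO libraries was Hspa5 at 78.99 ± 13.9 CPM per kilobase, Atf4 at 38.5 ± 3.48, Herpud1 at 37.3 ± 5.32, Xbp1 at 33.6 ± 2.60 and Dnajb9 at 16.1 ± 2.31 (SD, n = 6). In sham libraries it was Herpud1 at 145 ± 27.6 CPM per kilobase, Hspa5 at 115 ± 7.81, Xbp1 at 38.7 ± 3.68, Atf4 at 32.3 ± 3.67 and Dnajb9 at 13.97 ± 1.19 (SD, n = 3). Herpud1, the most abundant of the 10 in sham kidneys, thus stood beside Atf4 and Xbp1 in obstructed kidneys of both diets. The order of these 3 neighbours was not tested. The single sham libraries of Herpud1 and Hspa5 overlapped. The other 5 genes were lower in every group: in UUO libraries Ddit3 averaged 8.87 CPM per kilobase, Phgdh 5.65, Asns 3.52, Psat1 2.13 and Trib3 0.989. Asns and Psat1 changed places between UUO libraries and sham libraries, where Psat1 averaged 1.83 CPM per kilobase and Asns 1.11.

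**Figure D1:**
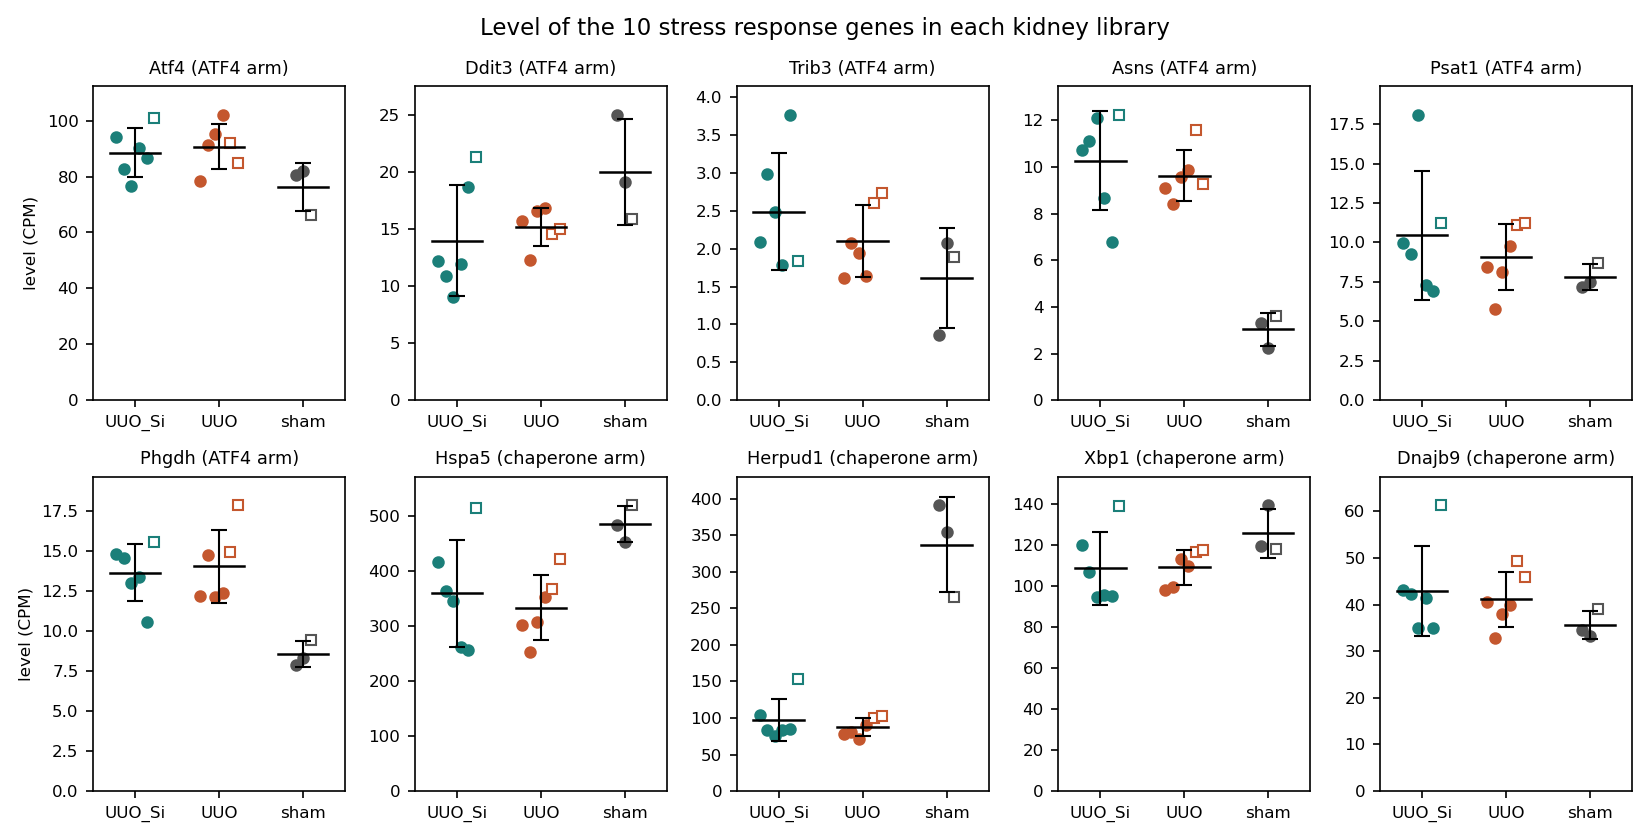
Level of each of the 10 genes in CPM (vertical axes, from 0) in every library of the UUO_Si (n = 6), UUO (n = 6) and sham (n = 3) groups, with bars for the mean ± SD and open squares for the 4 receptor-gene libraries. Asns and Phgdh were higher, and Herpud1 lower, in every obstructed library of either diet than in all 3 sham libraries.

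Obstruction on the normal diet moved 4 of the 10 genes past the test: Asns and Phgdh of the ATF4 arm rose, and Hspa5 and Herpud1 of the chaperone arm fell. These are 2 of 6 ATF4-arm genes higher and 2 of 4 chaperone-arm genes lower. Across all 16752 genes 53.9% were called in either direction, 27.5% as higher and 26.4% as lower, so 4 of 10 is no more than the share of genes in general. Groups did not overlap for 5 of the 10, against 46.9% of all genes. A gene was called where edgeR's quasi-likelihood test gave a Benjamini-Hochberg adjusted p below 0.05 over all tested genes. In bulk tissue, fewer cells of a type and less RNA per cell cannot be told apart, for these or any later values.

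Among the transcription factors and regulators, Atf4 itself had a lowest, median and highest level of 78.6, 91.8 and 102 CPM in UUO libraries. Sham replicates 1, 2 and 3 had 80.5, 82.0 and 66.3 CPM. For each gene below, UUO values are given as lowest, median and highest, and single sham values in replicate order. In UUO libraries 5 of 6 values lay above all sham values, and the lowest lay among them. The log2 fold change was 0.25 ± 0.11 (SE) with an adjusted p of 0.0579 by edgeR's quasi-likelihood test, just short of the threshold. Of 21 alternatives 7 called Atf4 higher and 14 did not. The adjusted p was 0.0481 with DESeq2 and 0.00897 with upper-quartile scaling in edgeR (log2 fold change 0.32). It was 0.252 without sham replicate 3 (0.16) and 0.173 without the 4 receptor-gene libraries (0.19), both by edgeR's quasi-likelihood test.

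Ddit3 encodes CHOP, a factor linked to cell death under lasting ER stress. Its levels were 12.3, 15.4 and 16.9 CPM (lowest, median and highest) in UUO libraries. Sham replicates 1 to 3 had 25.1, 19.2 and 15.9 CPM. The groups overlapped only through sham replicate 3, the lowest sham value and a receptor-gene library, and the log2 fold change was -0.40 ± 0.23 (SE) with an adjusted p of 0.149 in edgeR's quasi-likelihood test. Ddit3 was called lower with limma-voom with sample weights (adjusted p = 0.0425). Without sham replicate 1, its highest library, the log2 fold change was -0.19. Ddit3 shares 68 exon bases with Mars on the opposite strand and 105 with a second entry annotated as Ddit3, and whether the counting used strand is not given in the sources used here.

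Trib3, a pseudokinase that ATF4 and CHOP induce and that feeds back on them, was close to the lower limit of these libraries. It had 1.61, 2.01 and 2.73 CPM in UUO libraries (20 to 41 deposited counts). Sham replicates 1 to 3 had 0.860, 2.08 and 1.89 CPM (6 to 13 counts). The ranges overlapped, and the log2 fold change of 0.40 ± 0.37 (SE) had a 95% interval of -0.33 to 1.12. Without sham replicate 1 the log2 fold change was 0.09, and without sham replicate 2 it was 0.65. With so few counts and 3 sham libraries no difference was detected (adjusted p = 0.381, edgeR's quasi-likelihood test), and the wide interval leaves room for one.

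Among the enzymes of amino acid synthesis, Asns, asparagine synthetase, is a classical ATF4 target. Its levels were 8.39, 9.42 and 11.6 CPM (lowest, median and highest) in UUO libraries. Sham replicates 1 to 3 had 3.30, 2.24 and 3.60 CPM. Every UUO library lay well above every sham library. Asns rose 3.17-fold, a log2 fold change of 1.66 ± 0.23 (SE) with an adjusted p of 8.74e-06 in edgeR's quasi-likelihood test.

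Phgdh catalyses the first step of serine synthesis from a glycolytic intermediate. It measured 12.1, 13.6 and 17.9 CPM in UUO libraries, against 7.88, 8.31 and 9.47 CPM in sham replicates 1 to 3. The groups did not overlap, and Phgdh rose 1.65-fold (log2 fold change 0.72 ± 0.17 SE, adjusted p = 0.00152, edgeR's quasi-likelihood test). Psat1 catalyses the next step of the same pathway. It had 5.78, 9.09 and 11.3 CPM in UUO libraries, against 7.16, 7.51 and 8.71 CPM in sham replicates 1 to 3. The sham values lay inside the UUO range, and the log2 fold change of 0.22 ± 0.28 (SE) did not pass the test (adjusted p = 0.524, edgeR's quasi-likelihood test). A difference between Phgdh and Psat1 in their response was not tested.

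In the chaperone arm, Hspa5 encodes BiP, the ER chaperone that also holds the stress sensors inactive. Its levels were 254, 330.1 and 422 CPM (lowest, median and highest) in UUO libraries. Sham replicates 1 to 3 had 484, 454 and 520.0 CPM. All UUO libraries lay below all sham libraries. Hspa5 fell, with 1.45-fold less in UUO libraries (log2 fold change -0.54 ± 0.19 SE, adjusted p = 0.0234, edgeR's quasi-likelihood test). The call was lost without sham replicate 1 (log2 fold change -0.53, adjusted p = 0.0658) or without sham replicate 3 (-0.49, adjusted p = 0.0758, both edgeR's quasi-likelihood test), with a fold change close to that over all libraries.

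Herpud1 encodes a membrane protein of the complex that moves misfolded ER proteins out for degradation. It had 71.3, 85.2 and 102 CPM in UUO libraries, against 391, 355 and 266 CPM in sham replicates 1 to 3. The highest UUO library was far below the lowest sham library, sham replicate 3. Herpud1 fell by 1.95 ± 0.19 (SE) on the log2 scale, 3.87-fold lower, with an adjusted p of 1.44e-07 in edgeR's quasi-likelihood test. No other gene of the 10 had so large a change in this comparison. The proximal tubule marker sums were also lower in the UUO libraries. Loop and distal tubule markers summed to 1516 to 1755 CPM in UUO libraries, against 9254 to 10215 CPM in sham libraries. Collecting duct markers summed to 77.9 to 116 CPM in UUO libraries, against 354 to 432 CPM in sham libraries. The part of these tubule markers in the result was not tested.

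Xbp1 encodes the factor whose mRNA IRE1 splices. Its levels were 98.3, 112 and 117.6 CPM in UUO libraries, against 119.8, 139.5 and 118.0 CPM in sham replicates 1 to 3. All UUO values were below all sham values, but by a margin smaller than 1 CPM, and the log2 fold change of -0.20 ± 0.12 (SE) did not pass the test (adjusted p = 0.166, edgeR's quasi-likelihood test). Without the 4 receptor-gene libraries Xbp1 was called lower (log2 fold change -0.29, adjusted p = 0.0362, edgeR's quasi-likelihood test).

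Dnajb9 encodes ERdj4, a co-chaperone of BiP that XBP1 induces. It had 32.8, 40.3 and 49.4 CPM in UUO libraries, against 34.5, 33.2 and 39.0 CPM in sham replicates 1 to 3. The ranges overlapped, with 4 of 6 UUO libraries above all sham libraries. The log2 fold change of 0.21 ± 0.17 (SE) did not pass the test and had the opposite sign to those of Hspa5, Herpud1 and Xbp1 (adjusted p = 0.301, edgeR's quasi-likelihood test). Dnajb9 shares 14 exon bases with Mir5627 on the opposite strand.

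Obstruction on the silicon-based diet was set against the same sham libraries, so its values are not independent of those above. Here 3 of the 10 passed the test, Asns and Phgdh higher (2 of 6 in the ATF4 arm) and Herpud1 lower (1 of 4 in the chaperone arm), against 52.7% of all genes in either direction, 27.2% higher and 25.5% lower. Groups did not overlap for the same 3 genes, against 45.7% of all genes.

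Asns had 6.78, 10.9 and 12.2 CPM (lowest, median and highest) in UUO_Si libraries, above the 2.24 to 3.60 CPM of sham libraries in every case. It rose 3.39-fold (log2 fold change 1.76 ± 0.23 SE, adjusted p = 5.36e-06, edgeR's quasi-likelihood test). Phgdh had 10.6, 13.99 and 15.6 CPM in UUO_Si libraries, against 7.88 to 9.47 CPM in sham libraries, and rose 1.60-fold (adjusted p = 0.00254, edgeR's quasi-likelihood test). Herpud1 had 75.0, 84.5 and 153 CPM in UUO_Si libraries, against 266 to 391 CPM in sham libraries. It was 3.46-fold lower (log2 fold change -1.79 ± 0.19 SE, adjusted p = 4.50e-07, edgeR's quasi-likelihood test).

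Hspa5 did not pass here. It had 258, 355 and 515 CPM in UUO_Si libraries, against 454 to 520.0 CPM in sham libraries, and the overlap came from UUO_Si replicate 6 alone. The log2 fold change was -0.43 ± 0.19 (SE) with an adjusted p of 0.0663 in edgeR's quasi-likelihood test. Without UUO_Si replicate 6 the count of called genes was 6 in place of 3, beside 8800 of all tested genes in place of 8834 (52.7%). The 6 of 10 is near the share of genes in general. Hspa5 (adjusted p = 0.00892), Ddit3 (0.00897) and Xbp1 (0.0219) were then called lower as well, all by edgeR's quasi-likelihood test. The same 3 joined when the 4 receptor-gene libraries were left out, with 9503 of all tested genes called. Ddit3 was then at a log2 fold change of -0.82, Hspa5 at -0.50 and Xbp1 at -0.33. UUO_Si replicate 6 had the highest level of its group in 8 of the 10 genes. How often it was highest over all tested genes was not counted. This library also had the highest sum of the UUO_Si libraries over 18 ER chaperone and folding genes (5069 CPM). The same held for the proximal tubule markers (2197 CPM). The part of these sums in the result was not tested.

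The remaining genes overlapped between UUO_Si and sham libraries and did not pass edgeR's quasi-likelihood test. Atf4 had 76.5, 88.4 and 101 CPM (lowest, median and highest) in UUO_Si libraries, against 66.3 to 82.0 CPM in sham libraries (log2 fold change 0.21 ± 0.11 SE, adjusted p = 0.101); with upper-quartile scaling it was called higher (0.28, adjusted p = 0.0191). Ddit3 had 9.05, 12.1 and 21.3 CPM in UUO_Si libraries, against 15.9 to 25.1 CPM in sham libraries (-0.52 ± 0.23, adjusted p = 0.0689). Trib3 had 1.78, 2.29 and 3.77 CPM in UUO_Si libraries, against 0.860 to 2.08 CPM in sham libraries (0.63 ± 0.37). Psat1 had 6.91, 9.60 and 18.1 CPM in UUO_Si libraries, against 7.16 to 8.71 CPM in sham libraries (0.43 ± 0.29), and 0.21 without UUO_Si replicate 3, its highest library. Atf4 had 5 of 6 UUO_Si libraries above all sham libraries, Trib3 and Psat1 4 of 6 each, with 1 Psat1 value below all sham libraries, and Ddit3 had 4 of 6 below all of them. Xbp1 had 94.7, 101 and 139 CPM in UUO_Si libraries, against 118.0 to 139.5 CPM in sham libraries (-0.21 ± 0.12). Dnajb9 had 34.9, 41.8 and 61.3 CPM in UUO_Si libraries, against 33.2 to 39.0 CPM in sham libraries (0.28 ± 0.17). With a term for the 4 receptor-gene libraries, chosen after seeing the data, Dnajb9 was called higher (log2 fold change 0.32, adjusted p = 0.0180, edgeR's quasi-likelihood test).

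**Figure D2:**
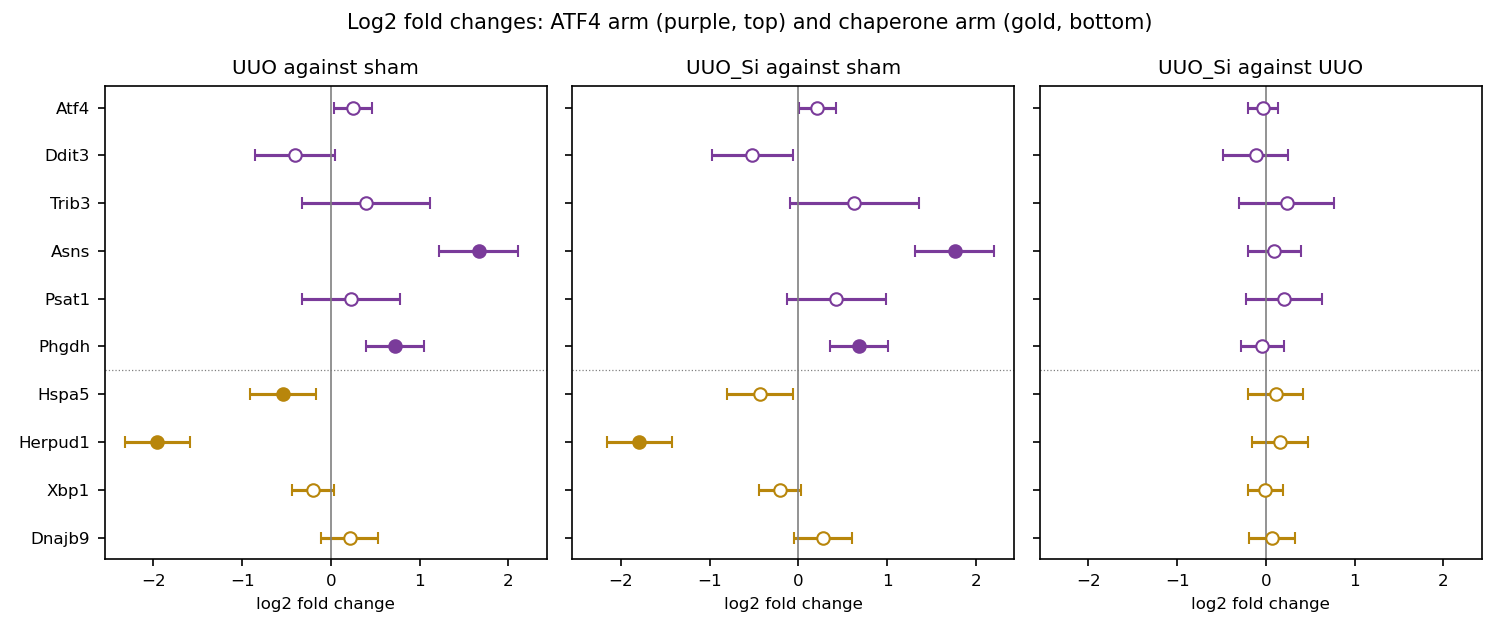
Log2 fold change of each of the 10 genes (horizontal axis) in UUO against sham, UUO_Si against sham and UUO_Si against UUO, with bars for the 95% interval and filled markers for an adjusted p below 0.05. Asns, Phgdh and Herpud1 were called against sham on both diets, Hspa5 on the normal diet, and no gene between the diets.

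Between the diets no gene of the 10 was called: every adjusted p was 0.999 by edgeR's quasi-likelihood test. Of all tested genes 0% were called in either direction, 0% as higher and 0% as lower. Of the 16752 genes 626 had an unadjusted p below 0.05, and DESeq2 called 2 and limma-voom with sample weights 0. Groups did not overlap for 0.203% of all genes and for none of the 10. The fold changes of UUO_Si against UUO lay between -0.11 (Ddit3) and 0.24 (Trib3) on the log2 scale. The 95% intervals are normal, so they are narrower than the test allows and set no firm bound. They were -0.20 to 0.13 for Atf4, -0.20 to 0.19 for Xbp1 and -0.28 to 0.21 for Phgdh. Psat1 and Trib3 had wider ones, at -0.22 to 0.63 and -0.30 to 0.77. For the 2 genes that were most changed by obstruction the intervals were -0.20 to 0.39 (Asns) and -0.15 to 0.47 (Herpud1). A p that misses the threshold does not show that the diets act alike, and the wide intervals of Trib3 and Psat1 leave room for a difference of over 1.5-fold.

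The spread between libraries, as the coefficient of variation (SD over mean), was higher in UUO_Si than in UUO libraries for 9 of the 10 genes, Phgdh being the exception, and for 6 of the 10 without UUO_Si replicate 6. For Herpud1 it was 29.8% in UUO_Si libraries, against 14.2% in UUO libraries, and 12.2% in UUO_Si libraries without replicate 6. For Dnajb9 it was 22.5% in UUO_Si libraries, against 14.3% in UUO libraries, and 10.3% without replicate 6. Ddit3 and Psat1 stayed wider without that library. The Ddit3 levels of UUO_Si libraries spanned 9.05 to 21.3 CPM, against 12.3 to 16.9 CPM in UUO libraries. Its coefficient was 34.6% in UUO_Si libraries (29.1% without replicate 6), against 10.9% in UUO libraries. Psat1 reached 18.1 CPM in UUO_Si replicate 3, and its coefficient was 39.0% in UUO_Si libraries (44.1% without replicate 6), against 22.8% in UUO libraries. These differences in spread were not tested. The share of all tested genes with a higher coefficient in UUO_Si libraries was not counted, so the 9 of 10 cannot be set against it. Leaving out UUO_Si replicate 6 kept UUO replicates 5 and 6, which are also receptor-gene libraries. Library totals ran from 7754724 to 11465936 counts in UUO_Si libraries and from 11151023 to 15422613 in UUO libraries. The part of these totals in the spread was not tested.

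The arms were compared within each library as the mean log2 CPM of the 6 ATF4-arm genes minus that of the 4 chaperone-arm genes; gene length enters its absolute size equally in every library, so only differences between groups are read. The gap was -3.11 ± 0.22 in UUO_Si libraries, -3.08 ± 0.06 in UUO libraries and -4.17 ± 0.10 in sham libraries (SD, n = 6, 6 and 3). Its ranges were -3.46 to -2.86 in UUO_Si libraries, -3.15 to -3.01 in UUO libraries and -4.26 to -4.07 in sham libraries. Every obstructed library, of either diet, had its ATF4 arm closer to its chaperone arm than any sham library. The gap shifted by 1.09 log2 units in UUO against sham libraries, made of 0.46 in the ATF4 arm and -0.63 in the chaperone arm. In UUO_Si against sham libraries the shift was 1.06 (0.49 and -0.57), and in UUO_Si against UUO libraries -0.03 (0.03 and 0.06). No p is given, since the genes were chosen with earlier results known.

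The size of the shift depended on the genes included. Asns and Herpud1 had the largest fold change of their arms against sham, so leaving them out must make the shift smaller. Without Asns and Herpud1, a split chosen after seeing the data, it was 0.42 in UUO against sham libraries and 0.40 in UUO_Si against sham libraries. Without Atf4, Ddit3 and Xbp1 it was 1.49 in UUO against sham libraries and 1.51 in UUO_Si against sham libraries. By gene the median log2 fold change in UUO against sham libraries was 0.32 in the ATF4 arm and -0.37 in the chaperone arm, beside -0.04 over all tested genes. In UUO_Si against sham libraries these medians were 0.53 and -0.32, beside -0.04. In UUO_Si against UUO libraries they were 0.03 and 0.09, beside 0.00. In both comparisons with sham, Ddit3 had a negative fold change within the ATF4 arm and Dnajb9 a positive one within the chaperone arm, and neither passed the test.

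**Figure D3:**
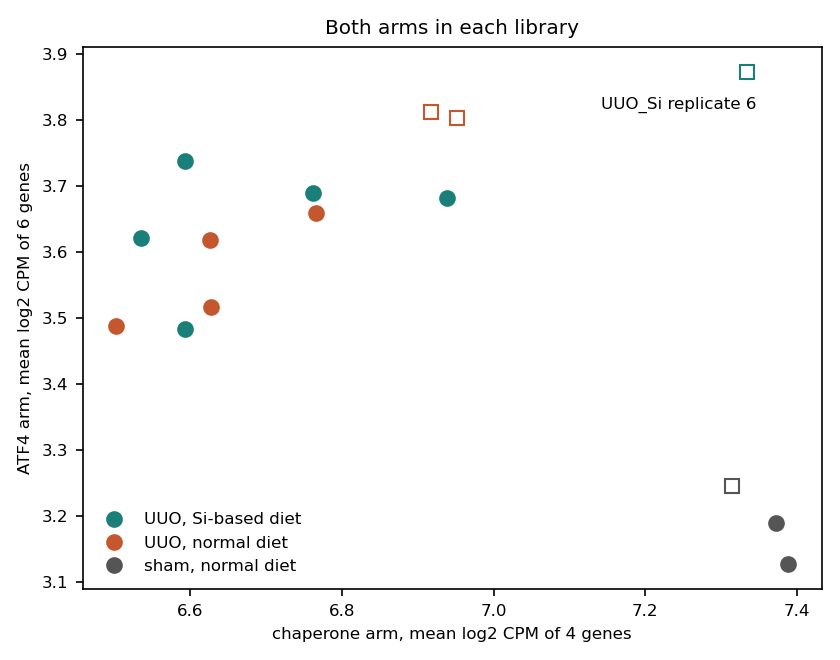
Mean log2 CPM of the ATF4 arm against that of the chaperone arm in each of the 15 libraries, with open squares for the 4 receptor-gene libraries. Sham libraries lie at 3.13 to 3.25 on the ATF4-arm axis and 7.31 to 7.39 on the chaperone-arm axis. All obstructed libraries lie above them on the ATF4-arm axis, while on the chaperone-arm axis UUO_Si replicate 6, at 7.33, lies within the sham range and the others below it.

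The receptor-gene libraries stood high within their own groups on the ATF4 arm. On that arm UUO_Si replicate 6 was at 3.87, against 3.48 to 3.74 in the other 5 of its group. UUO replicates 5 and 6 were at 3.80 to 3.81, against 3.49 to 3.66 in the other 4. Sham replicate 3 was at 3.25, against 3.13 to 3.19 in the other sham libraries. In the chaperone arm the same held on both diets of obstruction (7.33 against 6.54 to 6.94, and 6.92 to 6.95 against 6.50 to 6.77), but sham replicate 3 was lowest of its group (7.31 against 7.37 to 7.39). Without the 4 libraries the shift between arms was 1.16 in UUO against sham libraries and 1.18 in UUO_Si against sham libraries.

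The wider pathway was followed in 7 lists of genes with known roles, which share no member with the 10; calls are again those of edgeR's quasi-likelihood test. Each list's count is set against the 27.5% of all tested genes called higher and 26.4% called lower in UUO against sham libraries. Among 10 sensors and eIF2 regulators, 2 rose and 2 fell in UUO against sham libraries, with a median log2 fold change of -0.04; the share of 20% in each direction is below that of all genes. Eif2ak2, the eIF2 kinase that senses double-stranded RNA, averaged 94.0 ± 11.3 CPM in UUO libraries and 55.7 ± 1.72 CPM in sham libraries and rose by 0.76 (log2). Eif2s1, the eIF2 subunit that is phosphorylated, rose by 0.42 (log2) and Ppp1r15a, which directs a phosphatase to it, fell by 0.34. Eif2ak4, which encodes GCN2, fell by 0.57 (48.0 ± 11.4 CPM in UUO libraries and 71.0 ± 20.5 CPM in sham libraries). The genes of the 3 ER sensors, Eif2ak3 (PERK), Ern1 (IRE1) and Atf6, were not called, with log2 fold changes of 0.28, -0.02 and 0.13.

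Of 15 tested ATF4 partners and stress targets 11 rose and 2 fell in UUO against sham libraries, with a median log2 fold change of 0.86, beside -0.04 over all genes; Fgf21 was not tested. These are 73.3% higher and 13.3% lower, against 27.5% and 26.4% of all tested genes. Nupr1, a stress-induced chromatin protein, averaged 87.5 ± 9.03 CPM in UUO libraries and 20.6 ± 2.52 CPM in sham libraries (log2 fold change 2.08 ± 0.13 SE). Stc2, a secreted glycoprotein, averaged 15.1 ± 2.17 CPM in UUO libraries and 4.73 ± 0.904 CPM in sham libraries. Eif4ebp1, a repressor of cap-dependent translation, averaged 26.8 ± 3.90 CPM in UUO libraries and 11.6 ± 1.71 CPM in sham libraries. Sesn2, an inhibitor of mTORC1 signalling, went the other way with 26.9 ± 3.31 CPM in UUO libraries and 58.6 ± 11.6 CPM in sham libraries (log2 fold change -1.13 ± 0.12 SE). Vldlr, a lipoprotein receptor, also fell (log2 fold change -0.62 ± 0.13 SE). In UUO_Si against sham libraries 10 rose and 3 fell, 66.7% and 20%, against 27.2% and 25.5% of all tested genes.

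Beyond Asns, Phgdh and Psat1, 13 enzymes of amino acid synthesis and one-carbon metabolism were tested. Of these 3 rose and 7 fell in UUO against sham libraries, with a median log2 fold change of -1.10, and the counts were the same in UUO_Si against sham libraries. The shares are 23.1% higher and 53.8% lower, against 27.5% and 26.4% of all tested genes in UUO against sham libraries and 27.2% and 25.5% in UUO_Si against sham libraries. Shmt2 and Shmt1, which turn serine into glycine, averaged 32.2 ± 2.94 and 23.5 ± 0.542 CPM in UUO libraries, against 168 ± 43.7 and 93.7 ± 13.7 CPM in sham libraries. Cth, which makes cysteine, averaged 10.9 ± 4.59 CPM in UUO libraries and 117 ± 2.87 CPM in sham libraries. Glul, glutamine synthetase, averaged 253 ± 14.4 CPM in UUO libraries and 674 ± 58.5 CPM in sham libraries. The 3 that rose were Aldh18a1, an enzyme of proline synthesis (log2 fold change 1.75 ± 0.17 SE), and the mitochondrial folate enzymes Mthfd2 (1.25 ± 0.30) and Mthfd1l (0.87 ± 0.22). The marker sums of proximal tubule, loop and distal tubule and collecting duct were lower in the same libraries. Their part in these falls was not tested.

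Among 9 amino acid transporters 3 rose and 2 fell in UUO against sham libraries (median log2 fold change 0.31). These shares, 33.3% higher and 22.2% lower, are near the 27.5% and 26.4% of all tested genes. Of the 5 the largest fold was in Slc7a5, the light chain of the large neutral amino acid carrier, with 20.5 ± 4.18 CPM in UUO libraries and 2.86 ± 1.31 CPM in sham libraries. Slc3a2, its heavy chain, fell (92.7 ± 6.80 CPM in UUO libraries and 194 ± 54.0 CPM in sham libraries). Slc7a1, a cationic amino acid carrier, rose by 1.34 (log2) and Slc1a4, a neutral amino acid carrier, fell by 1.66. Of 21 aminoacyl-tRNA synthetases and related genes, 3 rose and 3 fell (median 0.05), 14.3% in each direction and so below the 27.5% and 26.4% of all tested genes. Xpot, an exporter of tRNA from the nucleus, fell by 0.57 (log2) and had the smallest p of the list. Farsa (-0.81), a subunit of the phenylalanine enzyme, and Yars (-0.42), the tyrosine enzyme, also fell, and Vars (0.75) and Wars (0.48), the valine and tryptophan enzymes, rose.

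Beyond the 4 chaperone-arm genes, 18 ER chaperones and folding enzymes were tested. Of these 2 rose and 6 fell in UUO against sham libraries, with a median log2 fold change of -0.11. The shares are 11.1% higher and 33.3% lower, against 27.5% and 26.4% of all tested genes, so the share lower is near that of genes in general. Calr, a calcium-binding chaperone of glycoproteins, averaged 692 ± 104 CPM in UUO libraries and 1150 ± 82.1 CPM in sham libraries. Hyou1, a large ER chaperone, averaged 108 ± 8.74 CPM in UUO libraries and 173 ± 16.4 CPM in sham libraries. Dnajc10, an ER disulfide reductase, rose by 1.15 (log2) and Fkbp14, a collagen-associated prolyl isomerase, by 0.94. In UUO_Si against sham libraries 2 rose and 4 fell. These shares, 11.1% and 22.2%, are below the 27.2% and 25.5% of all tested genes. Without UUO_Si replicate 6, 7 fell, where 8800 of all tested genes were called in either direction. The share of all genes called lower in that setting was not counted, so the 7 cannot be set against it.

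Of 19 genes of ER-associated degradation, the process Herpud1 serves, and of translocation, 6 rose and 4 fell in UUO against sham libraries (median log2 fold change 0.09). These shares, 31.6% higher and 21.1% lower, are near the 27.5% and 26.4% of all tested genes. Syvn1, the ubiquitin ligase of that complex, averaged 33.4 ± 4.03 CPM in UUO libraries and 53.4 ± 11.2 CPM in sham libraries and fell. Sel1l, its partner, averaged 177 ± 13.98 CPM in UUO libraries and 127 ± 2.26 CPM in sham libraries and rose. Sec61a1, the core of the translocation channel, rose by 0.86 (log2), and Sec62, an accessory protein of it, fell by 0.76. Os9, a lectin that recognises misfolded glycoproteins, and Derl3, a membrane protein of the export complex, fell by 0.31 and 1.2. Without the 4 receptor-gene libraries no count of these 7 lists in UUO against sham changed by more than 1 gene in either direction. No gene of any of the 7 lists was called in UUO_Si against UUO libraries with edgeR's quasi-likelihood test.

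**Figure D4:**
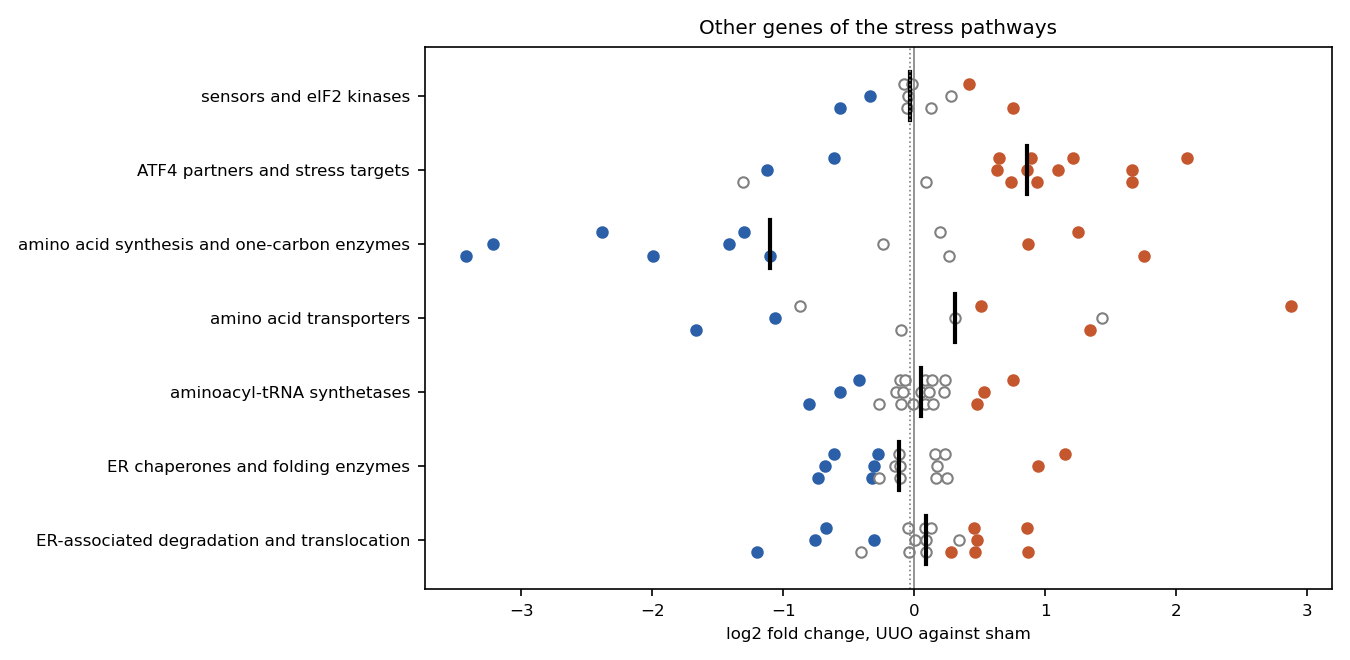
Log2 fold change of each tested gene of the 7 pathway lists in UUO against sham, with red and blue points for genes called higher and lower, open grey points for genes not called, a black bar for the list median and a dotted line for the median of all tested genes. The ATF4 partners and stress targets have their median at 0.86 and the amino acid synthesis and one-carbon enzymes at -1.10.

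Macrophage markers summed to 592 to 949 CPM in UUO_Si libraries and 647 to 874 CPM in UUO libraries, against 94.6 to 120.1 CPM in sham libraries. In UUO against sham 5 of 5 were called higher, against 27.5% of all tested genes. The count was the same in UUO_Si against sham, where 27.2% of all tested genes were called higher. Markers of plasma cells, which are known for high Xbp1, and of B cells were summed together. Their sums were 65.2 to 85.7 CPM in UUO_Si libraries and 69.2 to 105 CPM in UUO libraries, against 9.17 to 25.6 CPM in sham libraries. In UUO against sham libraries 2 of 6 tested were called higher (33.3%, against 27.5% of all tested genes). Without the 4 receptor-gene libraries 4 of 6 were called higher, and the median log2 fold change was 2.39 in place of 1.2. In that setting 9354 of all tested genes were called in either direction, and the share called higher was not counted. Among these markers Tnfrsf17 was not tested, and Cd79a, Ms4a1 and Tnfrsf17 were at 0 in at least 1 library. Injured tubule markers summed to 576 to 956 CPM in UUO_Si libraries and 594 to 1030.4 CPM in UUO libraries, against 19.8 to 32.6 CPM in sham libraries. Of these, 4 of 4 were called higher in both comparisons with sham, beside the same 27.5% and 27.2% of all tested genes. The part of these cell types in the levels of the 10 genes was not tested.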

How the data were processed

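Total RNA of mouse kidney (RNeasy, from RNAlater) was made into libraries with a SMARTer Stranded Total RNA-Seq Pico kit, per the labels' protocols. The submitters' processing notes name build mm10, TopHat2 2.1.1 and Cuffdiff 2.2.1, with no role given. The deposited values are expected counts per gene, since 3 of the 10 genes had values that were not whole; they were rounded to whole numbers. No source used here gives the counting step or its strand setting.

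The edgeR 4.0.16 quasi-likelihood test (R 4.3.3, limma 3.58.1) was fitted to all 15 libraries with a mean per group, TMM scaling and edgeR's expression filter (minimum count 10), leaving 16752 genes. Benjamini-Hochberg adjustment ran over these genes, and an adjusted p below 0.05 was a call. SE is the log2 fold change over the square root of F, and 95% intervals are normal. Such intervals are narrower than the test allows. Atf4 in UUO_Si against sham had an interval of 0.0057 to 0.42, but an unadjusted p of 0.0605 in edgeR's quasi-likelihood test. CPM used TMM-scaled totals, log2 a prior count of 2, and exon lengths came from GENCODE M21. DESeq2 1.42.0 and limma-voom were alternatives. Scripts were tested on simulated data.

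The 10 genes, lists and motifs were chosen with earlier results of these data known. Named list genes are up to 4 with the smallest p in UUO against sham and those called against their list's majority; the 3 ER sensor genes were added for their role. No label pairs libraries by replicate number, and the main fit did not pair them. The smaller code series are UUO replicates 5 and 6 and UUO_Si replicate 6, whose title codes differ from those of their groups; what the codes mean is not stated.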

Additional observations from a re-analysis of the deposited data

Results flagged for a closer look

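In UUO_Si replicate 6, Herpud1 was at 153 CPM, against 75.0 to 103 CPM in the other 5 UUO_Si libraries; its gap to the nearest library was 0.637 of the group's range. In the same library Dnajb9 was at 61.3 CPM, against 34.9 to 43.2 CPM in the others, with a gap of 0.688 of the range. Both gaps exceed Dixon's 95% critical value for 6 samples. Chance passes that value in about 1 of 20 groups, and 26 groups were examined. This library is also the receptor-gene library of its group and the only UUO_Si library with a title code of another series, so these properties cannot be told apart.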

How the results depend on the processing

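Asns, Phgdh and Herpud1 kept their direction and their call against sham, on both diets, under every alternative run. In UUO against sham the count of called genes was 3 to 6 over all alternatives, against 4, and 3 to 5 with each library left out. Over all genes 7719 to 10061 were called in these alternatives, against 9036 (53.9%). In UUO_Si against sham, where 3 were called, the count was 5 with the stricter filter (minimum count 30), with the replicate block and with a term for the 4 receptor-gene libraries, and 6 with limma-voom with sample weights, without the 4 receptor-gene libraries and without the smaller code series. With each library left out it was 3 to 6, the 6 without UUO_Si replicate 6. Over all genes 7693 to 9928 were called in the alternatives of UUO_Si against sham, against 8834 (52.7%). Replicate numbers were not taken as pairs, and no label says that they are. Deviations of same-numbered UUO and sham libraries correlated at 0.19, 0.13 and -0.29, and those of UUO_Si and sham at -0.04 to 0.16. Those of UUO_Si and UUO ran from -0.39 (replicate 5) to 0.75 (replicate 6). UUO replicate 6 and UUO_Si replicate 6 are both receptor-gene libraries. The block gave 5 calls in UUO against sham (Ddit3 added, adjusted p = 0.0498, edgeR) and 0 between the diets. The shift between arms in UUO against sham was 1.16 without the 4 receptor-gene libraries, 1.55 with the median over an arm, 1.49 without Atf4, Ddit3 and Xbp1, and 0.42 without Asns and Herpud1. In UUO_Si against sham these last 3 were 1.46, 1.51 and 0.40. Of 239 values for UUO_Si against UUO 19 changed sign, all near 0 and none called. Phgdh was 0.0711 with limma-voom, 0.0440 without the 4 receptor-gene libraries, 0.0437 without the smaller code series and 0.0154 with the term for those 4 libraries, where Xbp1 was 0.0202. With each library left out, log2 fold changes ran from -0.0771 to 0.0043 for Atf4, -0.0183 to 0.296 for Psat1, -0.0815 to 0.0360 for Phgdh, -0.0218 to 0.189 for Hspa5, -0.0183 to 0.226 for Herpud1, -0.0905 to 0.0312 for Xbp1 and -0.0645 to 0.127 for Dnajb9. The causes were not tested. The receptor-gene term and the removal of Asns and Herpud1 were added after seeing the data. Trib3, with 6 to 41 counts per library, was not tested under the stricter filter.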
